A study of Mus musculus with 6 samples.

Results

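Transcripts of the ADAM3 complex and of the other ADAM genes linked to male fertility were compared between testes of Prss55-/- and wild-type (wt) mice. The members were the 10 genes Adam1a, Adam1b, Adam2, Adam3, Adam4, Adam5, Adam6a, Adam6b, Adam18 and Adam32, taken as every probe that the array design names by one of these symbols, out of 27376 gene names on the array. They had 14 probes, with 2 probes each for Adam1a, Adam1b, Adam5 and Adam18 and 1 for each of the other 6 genes. All 14 probes were well above background on all 6 arrays. The question was whether mRNA levels of these genes differ in testes that lack the serine protease PRSS55, which in wt mice is made in testis.

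RNA came from whole testes of male mice aged 6 to 8 weeks on a mixed 129Sv/C57BL/6 background, 3 with the genotype Prss55KO (Prss55-/-) and 3 wt, and each sample was labelled with Cy3 and hybridised to its own one-colour array. Prss55 had been disrupted in every cell of the mouse by homologous recombination with a PGK-Neo cassette, and offspring came from crosses of heterozygous mice. The samples came from 3 mice of each genotype. All 3 Prss55-/- arrays lay on 1 slide and the 3 wt arrays on the other 2 slides, so slide and genotype cannot be told apart. In whole testis, fewer cells of a type and less RNA per cell cannot be told apart either.

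ADAM proteins are membrane proteins with a metalloprotease-like and a disintegrin-like domain. Several of them are made in male germ cells, where they pair with one another, are folded by testis-specific chaperones in the endoplasmic reticulum and are cut to their mature form as sperm pass through the epididymis. ADAM1A and ADAM1B pair with ADAM2 to form the fertilins, and ADAM2 is needed for ADAM3 to reach the sperm surface. Sperm without ADAM3 bind poorly to the zona pellucida and do not pass the uterotubal junction, the narrow entry to the oviduct.

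The results rest on short DNA probes, so sequences are given for 7 of the members, to show the stretches by which related genes were read. For Adam1b and Adam5 the dimmer of the 2 probes is shown, and the comparisons by gene use the brighter one. Each is written 5′ to 3′ as the array files give it, with capitals marking its longest run of bases shared with a probe of another member. Of the Adam3 probe the first 30 bases are shown.
Adam3: caagaacatgcccatctctttCTCTGTTgc
Adam2: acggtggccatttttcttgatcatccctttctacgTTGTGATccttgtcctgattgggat
Adam5: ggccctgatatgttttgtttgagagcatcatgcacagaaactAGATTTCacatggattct
Adam1a: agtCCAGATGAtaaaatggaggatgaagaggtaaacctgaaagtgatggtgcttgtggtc
Adam1b: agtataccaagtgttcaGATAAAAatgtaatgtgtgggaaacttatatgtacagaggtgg
Adam6a: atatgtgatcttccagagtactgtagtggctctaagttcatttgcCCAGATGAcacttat
Adam6b: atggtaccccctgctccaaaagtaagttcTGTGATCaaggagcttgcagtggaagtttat

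Over all 87 pairs of probes from different members, the longest shared run was 8 bases, and the best ungapped alignment matched 26 of 60 bases. The paralogs Adam6a and Adam6b, whose promoter windows of 300 bases in RefSeq (GRCm38.p6) share a run of 199 bases, were read by probes that share little sequence with each other. Whether a probe also matches the transcript of the other paralog was not analysed here. By the positions in the array files (mm9, all on the minus strand), the Adam3 probe lies at chr8:25787727-25787786, the Adam2 probe at chr14:66648532-66648591 and the Adam1a probe shown at chr5:121969000-121969059. The Adam5 probe shown spans chr8:25857993-25892049 on the genome, which is longer than its 60 bases, so it crosses at least 1 intron. The Adam1b probe shown lies at chr5:121951282-121951341, also on the minus strand. On the plus strand of chromosome 12, the Adam6a probe lies at chr12:114783663-114783722 and the Adam6b probe 54.0 kb away at chr12:114729640-114729699.

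Prss55 was checked first. Its normalized signal, on the log2 scale, was 15.08, 14.95 and 14.93 in the Prss55-/- samples and 15.87, 15.77 and 16.01 in wt. The groups did not overlap, and the signal in Prss55-/- testes was 53.6% of wt, a log2 difference of -0.90 (SE 0.080, limma adjusted p = 0.010). The probe still read well above background on all 3 Prss55-/- arrays. Which part of the gene the cassette replaced relative to this probe was not analysed here, so the check shows a lower signal and not a loss of functional mRNA. The study itself reported that Prss55 mRNA was absent by RT-PCR, and the protein by Western blotting and immunofluorescence. Across arrays, 69.5% to 72.9% of spots were well above background, no spot was saturated, and arrays correlated at 0.9921 to 0.9973 over the 28606 probes tested.

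None of the 14 member probes passed an adjusted p of 0.05 (limma, Benjamini-Hochberg over all probes tested), where 1.21% of all probes did, 0.559% higher and 0.65% lower in Prss55-/- testes. The methods' t-test after the same adjustment called 0 of 14, where only 0.304% of all probes passed. Without adjustment, 2 of 14 probes (14.3%), for Adam3 and Adam1a, had p below 0.05, against 19.1% of all probes. The same 2 probes were the ones whose 3 Prss55-/- values did not overlap the 3 wt values, against 26.3% of all probes. Adam1a was the 1 probe with all Prss55-/- values higher (13.4% of all probes) and Adam3 the 1 with all lower (12.9%). Neither share is above the background. The 95% intervals of all 14 probes lay within 2-fold, between 73.8% and 133.2% of wt at their outermost. The median log2 difference over the 10 genes, each read by its brightest probe, was -0.07, with 0.00 over all tested probes, and 7 genes had a lower mean and 3 a higher mean in Prss55-/- testes. The median size of the difference was 0.10 over member probes and 0.09 over all tested probes, and the median SD within a genotype was 0.085 and 0.081.

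**Figure D1:**
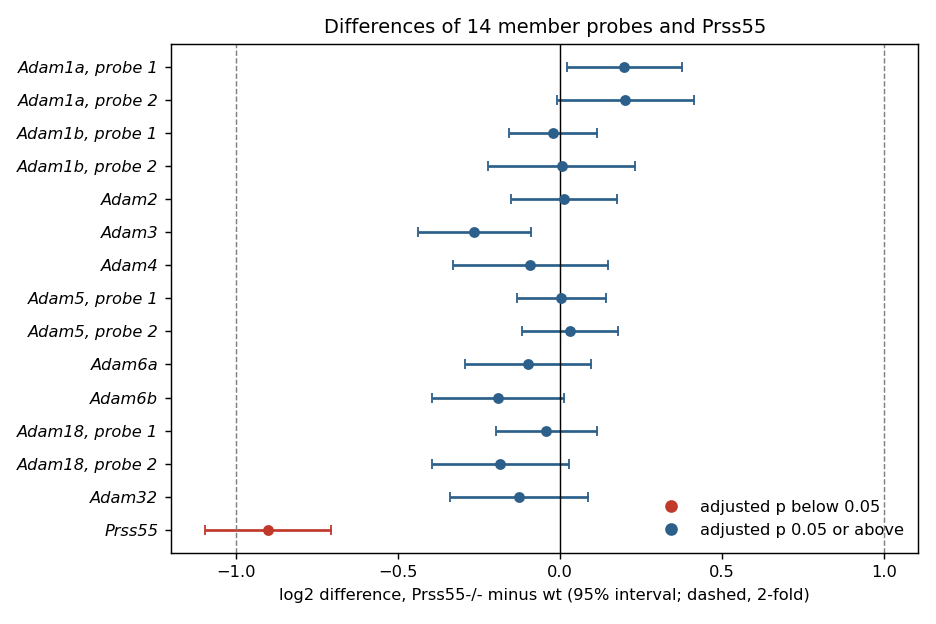
The log2 difference between Prss55-/- and wt testes (x axis) is drawn for each of the 14 member probes and for Prss55, with bars for the 95% interval from limma and dashed lines at 2-fold. Every member interval lies inside the dashed lines, and the Prss55 probe, at -0.90, is the only one drawn as past an adjusted p of 0.05.

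Adam3 had the lowest adjusted p of the members. Its normalized log2 signal was 16.72, 16.49 and 16.51 in Prss55-/- testes and 16.84, 16.86 and 16.82 in wt. All 3 Prss55-/- values lay below all 3 wt values, and the wt values were close together while Prss55-/- replicate 1 lay nearer to wt than the other two. The signal was 83.3% of wt, a log2 difference of -0.26 (SE 0.072, 95% interval -0.44 to -0.09). This did not pass the test (limma adjusted p = 0.137). Without Prss55-/- replicate 1 the difference was -0.34 with a limma adjusted p of 0.0383, a setting in which 2.99% of all probes passed in place of 1.21%, and over all alternatives the adjusted p ran from 0.0383 to 0.358.

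Adam2, which encodes the fertilin subunit that ADAM3 needs to reach the sperm surface, read 16.06, 16.08 and 16.07 in Prss55-/- testes and 16.11, 16.14 and 15.93 in wt. The Prss55-/- values fell inside the wt range. The log2 difference was 0.01 (SE 0.067, 95% interval -0.15 to 0.18, limma adjusted p = 0.934), so a change to below 90.1% or above 113% of wt lies outside the interval.

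Adam1a and Adam1b encode the 2 alternative partners of ADAM2. The brighter Adam1a probe read 14.17, 14.10 and 14.12 in Prss55-/- testes and 13.87, 13.86 and 14.08 in wt. The groups did not overlap, with Prss55-/- higher, but wt replicate 3 lay close to the Prss55-/- values. The log2 difference was 0.20 (SE 0.073, limma adjusted p = 0.225). The other Adam1a probe gave 10.85, 10.64 and 10.75 against 10.41, 10.57 and 10.66, a log2 difference of 0.20 (limma adjusted p = 0.281), and there the groups overlapped. Both probes of Adam1b overlapped between genotypes, with log2 differences of -0.02 and 0.01 (limma adjusted p = 0.854 and 0.98).

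Adam5, Adam18 and Adam32 lie beside Adam3 on chromosome 8, and ADAM5 and ADAM18 are germ cell ADAMs found on sperm. The brighter Adam5 probe read 16.76, 16.73 and 16.85 in Prss55-/- testes and 16.78, 16.67 and 16.81 in wt. Its groups overlapped, with a log2 difference of 0.03 (SE 0.061, limma adjusted p = 0.812), and the intron-crossing Adam5 probe gave 0.00 (limma adjusted p = 0.978). The brighter Adam18 probe read 15.42, 15.35 and 15.38 against 15.45, 15.51 and 15.32, a log2 difference of -0.04 (limma adjusted p = 0.753). The other Adam18 probe gave -0.18 (SE 0.087, limma adjusted p = 0.313), and the 2 probes of this gene differ in size but not in direction. Adam32 read 14.88, 15.18 and 15.09 in Prss55-/- testes and 15.21, 15.21 and 15.10 in wt, where Prss55-/- replicate 1 was the lowest value. Its groups overlapped (log2 difference -0.13, SE 0.087, limma adjusted p = 0.475).

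Adam6a and Adam6b are intronless genes within the immunoglobulin heavy chain locus, and ADAM6 has been linked to ADAM2 and ADAM3 in sperm. Adam6a read 12.28, 12.15 and 12.05 in Prss55-/- testes and 12.23, 12.18 and 12.36 in wt, a log2 difference of -0.10 (SE 0.080, limma adjusted p = 0.538). Adam6b read 12.06, 11.93 and 11.79 against 12.12, 12.05 and 12.19, a log2 difference of -0.19 (SE 0.083, limma adjusted p = 0.285). In both genes the groups overlapped, and Prss55-/- replicate 3 was the lowest array. Adam4, another testis ADAM, gave 13.11, 13.00 and 12.85 against 13.15, 12.92 and 13.16, with overlapping groups (log2 difference -0.09, SE 0.098, limma adjusted p = 0.647).

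**Figure D2:**
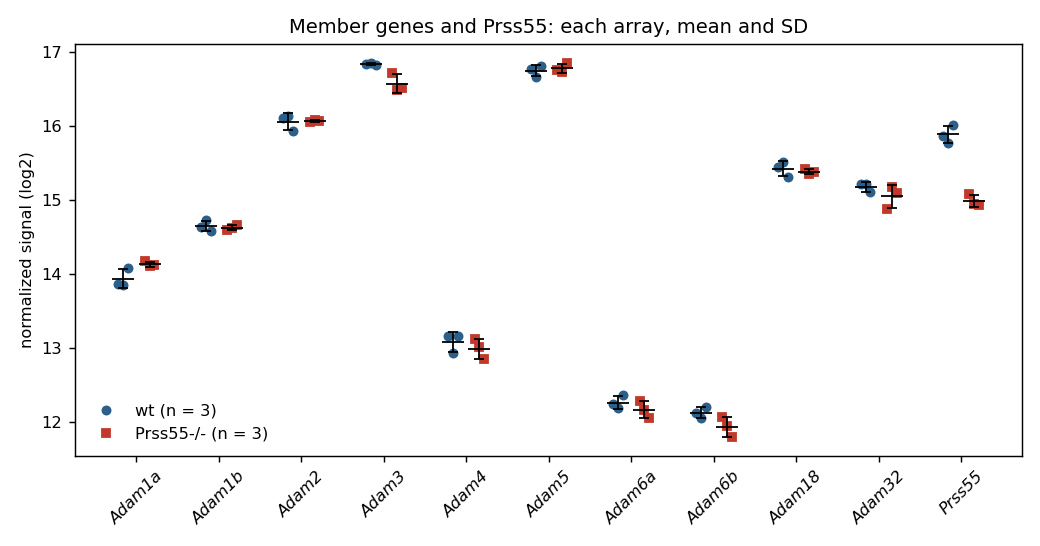
Normalized log2 signal (y axis) of the brightest probe of each member and of Prss55 on the 3 wt arrays (circles) and the 3 Prss55-/- arrays (squares), with the mean and SD of each group. The groups separate for Prss55, Adam3 and Adam1a and overlap for the other 8 genes.

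The members were bright in testis of both genotypes. The rank of each probe among the 28606 tested probes, as a percentile on each array, ran above 98% on all 6 arrays for Adam2, Adam3 and both Adam5 probes. The Adam3 probe lay between percentiles 98.9 and 99.4, and the brighter Adam18 probe between 96.6 and 97.1. By brightest probe, the lowest members were Adam6a, between 78.0 and 80.9, and Adam6b, between 75.5 and 79.3. The dimmer Adam1a probe lay lower still, between 60.2 and 65.5. Probes of 1 gene ranked apart, with the Adam1b probes at medians of 94.4 and 41.9, so the rank describes a probe and does not order the genes by abundance.

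Because a ratio within an array is not moved by a constant scaling of that array, the Adam3 signal was also set against each other member on the same array. This comparison was chosen after the values had been seen. The log2 difference of Adam3 minus Adam2 was 0.66, 0.41 and 0.45 in Prss55-/- testes and 0.73, 0.72 and 0.90 in wt. All 3 Prss55-/- values lay below the wt values, by 0.28 on average. The groups also did not overlap, with Prss55-/- lower, for Adam3 relative to Adam1a, Adam1b, Adam5 and Adam18, so for 5 of 9 members in all. They overlapped relative to Adam4, Adam6a, Adam6b and Adam32. For each of the 5, an exact two-sided permutation test gave p = 0.1, the smallest that 3 samples against 3 allow, and 0.18 after Benjamini-Hochberg adjustment over the 9 comparisons. The 9 ratios share the Adam3 values, which already did not overlap between genotypes by themselves. The ratios are therefore not independent and add no separate support. How often Adam3 separates in this way relative to all tested genes was not analysed here.

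**Figure D3:**
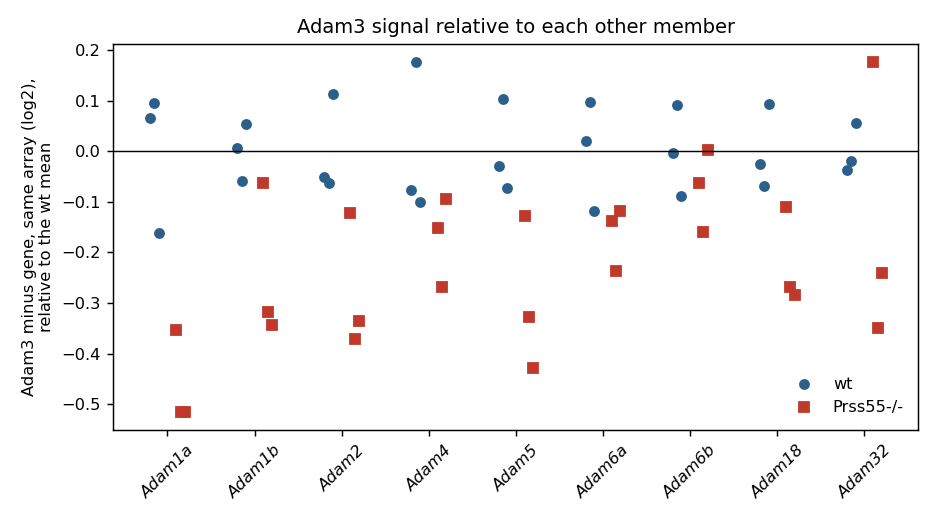
For each other member (x axis), the Adam3 minus member difference on the same array (y axis, log2) is drawn for wt (circles) and Prss55-/- (squares) arrays, with the wt mean of that difference set to 0. The squares lie below all circles for Adam1a, Adam1b, Adam2, Adam5 and Adam18 and overlap the circles for Adam4, Adam6a, Adam6b and Adam32.

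The probes of Adam18, Adam3, Adam5 and Adam32 fall within 268.5 kb of chromosome 8. Of 32 tested probes of other genes within 1 Mb of them, 0 passed limma's adjusted p (8 had an unadjusted p below 0.05, where 19.1% of all probes did), and the median log2 difference of these probes was 0.02. The nearest ADAM gene there, Adam9, a broadly expressed metalloprotease, had a log2 difference of -0.18 with non-overlapping groups (limma adjusted p = 0.197). Around Adam1a and Adam1b, 0 of 73 probes passed (7 at an unadjusted p below 0.05), and around Adam4 1 of 43 did, 0610009B14Rik, at -0.85.

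Adam2 lies on chromosome 14, 1.95 Mb from the Prss55 probe, in a region where other genes changed. Of 36 tested probes within 1 Mb of Adam2, 4 passed the adjusted p (11.1%, against 1.21% of all probes). Pnoc, which encodes the precursor of nociceptin, rose by 1.01 on the log2 scale (limma adjusted p = 0.00721). Elp3, the catalytic subunit of the Elongator complex, rose by 0.66 (limma adjusted p = 0.00977). The dimmer probe of Scara5, a scavenger receptor for ferritin, had a log2 difference of -1.09 (limma adjusted p = 0.0439), while its brighter probe gave 0.10 with overlapping groups (limma adjusted p = 0.425). The brighter probe of Dpysl2 gave -0.31 (limma adjusted p = 0.0367) and its dimmer probe 0.27 (limma adjusted p = 0.355), so the probes of both genes disagree. Between the Prss55 and Adam2 probes, 5 of 31 tested probes passed. Adam2 itself differed by 0.01, as given above.

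Near Adam6a and Adam6b, 4 of 41 probes passed (9.76%), all lower in Prss55-/- testes. They were 4930427A07Rik (log2 difference -0.32), and 3 entries that the array design names by sequence accession, with log2 differences of -0.81, -0.83 and -0.92.

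**Figure D4:**
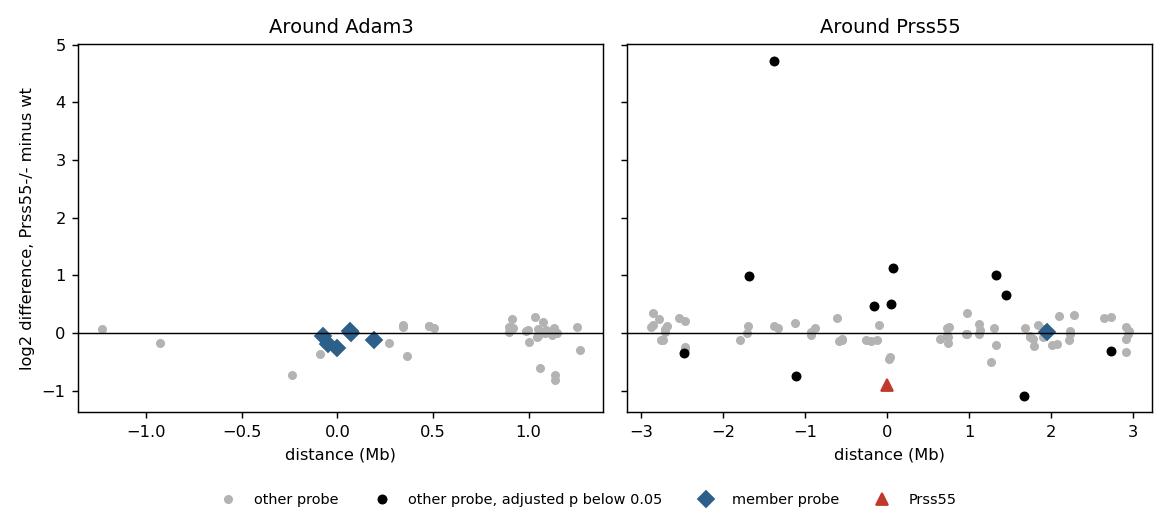
Log2 difference between Prss55-/- and wt testes (y axis) of each tested probe by its distance in Mb from the Adam3 probe (left) and from the Prss55 probe (right). Member probes (diamonds) lie near 0 in both, no probe drawn around Adam3 is past the adjusted p (black), and black points lie on both sides of Prss55, from its immediate neighbours to genes beyond Adam2, the diamond at 1.95 Mb.

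Proteins that fold, pair with, modify or act with ADAM3 were taken as a list of 20 genes, of which 19 were tested with 25 probes. None passed the adjusted p in either direction (limma), 5 of 25 probes had an unadjusted p below 0.05 (19.1% of all probes did), and the median log2 difference over the genes was -0.00. Groups did not overlap for 4 probes with Prss55-/- higher (13.4% of all probes) and for 4 with Prss55-/- lower (12.9%). Of the chaperones, Clgn (calmegin) gave -0.08 with overlapping groups (limma adjusted p = 0.627). Calr3, a testis calreticulin on which ADAM3 folding depends, read 15.24, 15.36 and 15.18 in Prss55-/- testes and 15.44, 15.40 and 15.51 in wt. Its groups did not overlap, with a log2 difference of -0.19 (limma adjusted p = 0.191). Pdilt, a testis protein disulfide isomerase that works with calmegin, did not overlap either, in the other direction, at 0.13 (limma adjusted p = 0.24). Hspa5, the general chaperone BiP, gave -0.18 (limma adjusted p = 0.288), and its groups did not overlap.

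Prss37, another testis serine protease required for ADAM3 on sperm, read 16.75, 16.68 and 16.64 in Prss55-/- testes and 16.86, 16.83 and 16.92 in wt. All Prss55-/- values were below wt, at a log2 difference of -0.18 (limma adjusted p = 0.158). Tex101, a GPI-anchored germ cell protein that ADAM3 requires, gave 0.14 with overlapping groups (limma adjusted p = 0.447). Its partner Ly6k gave 0.09 and Lypd4 0.08, both with Prss55-/- values above all wt values and neither past the test. Ace, whose testis form is needed for ADAM3 distribution, gave -0.01 (limma adjusted p = 0.946). Tpst2, a tyrosylprotein sulfotransferase, gave 0.00 with overlapping groups (limma adjusted p = 0.987). Pmis2, listed on the array under the older symbol 4930479M11Rik, gave -0.01 (limma adjusted p = 0.939).

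Rnase10, a secreted protein of the proximal epididymis that ADAM3 maturation depends on, read 7.29, 4.64 and 5.44 in Prss55-/- samples and 8.60, 8.80 and 8.71 in wt. Its groups did not overlap, and only 2 of the 3 Prss55-/- arrays read it well above background. It entered the test through the wt arrays, on all 3 of which it was well above background. The measured log2 difference was -2.91 (limma adjusted p = 0.0925, and 0.181 with no filter on dim probes). With the Prss55-/- values raised to at least the lowest signal well above background, wt was at least 6.61-fold higher. Of the 9 epididymis markers, 5 were tested and 0 passed in limma (2 probes at an unadjusted p below 0.05), where 19.1% of all probes had such a p. Their summed signal was 86090 to 94550 in Prss55-/- and 93850 to 95420 in wt samples and is nearly all Cst8, at a mean log2 signal of 16.46 and 16.52. Rnase10 is itself one of the markers, the tested Lcn9, Adam28 and Cst11 had higher means in Prss55-/- samples (log2 differences 0.53, 0.24 and 0.32, none past the test), and the list median was 0.24. Lcn5, Lcn8, Adam7 and Crisp1 were not above background often enough to be tested. Their part in the Rnase10 value was not tested.

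Of the 27 other ADAM genes, 22 had a probe and 16 were tested with 26 probes. Of these probes, 15 had an unadjusted limma p below 0.05, against 19.1% of all probes, and 2 passed the adjusted p, against 1.21%. Groups did not overlap for 12 probes with Prss55-/- higher and for 3 with Prss55-/- lower, against 13.4% and 12.9% of all probes. Probes of 1 gene are not independent. Adam26a and Adam29, both testis ADAMs, each had 1 probe past the adjusted p (0.0326 and 0.0401 in limma), at log2 differences of 0.38 and 0.39. Their brightest probes gave 0.35 and 0.14 (limma adjusted p = 0.0517 and 0.244). The number of probes past the threshold was 0 without Prss55-/- replicate 2 or 3, and without wt replicate 1 or 2. In these settings 0.22%, 0.133%, 0.241% and 0.444% of all probes passed, in that order, in place of 1.21%. Whether the loss of calls was particular to these genes was not tested. By brightest probe, 7 genes (Adam8, Adam17, Adam24, Adam25, Adam26a, Adam28 and Adam29) had all Prss55-/- values above wt, against 13.4% of all probes, and Adam9 and Adam11 had all below, against 12.9%. Adam24 and Adam25 gave log2 differences of 0.20 and 0.31. The median over the 16 genes was 0.12. Whether the members and these genes differ in response was not tested.

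**Figure D5:**
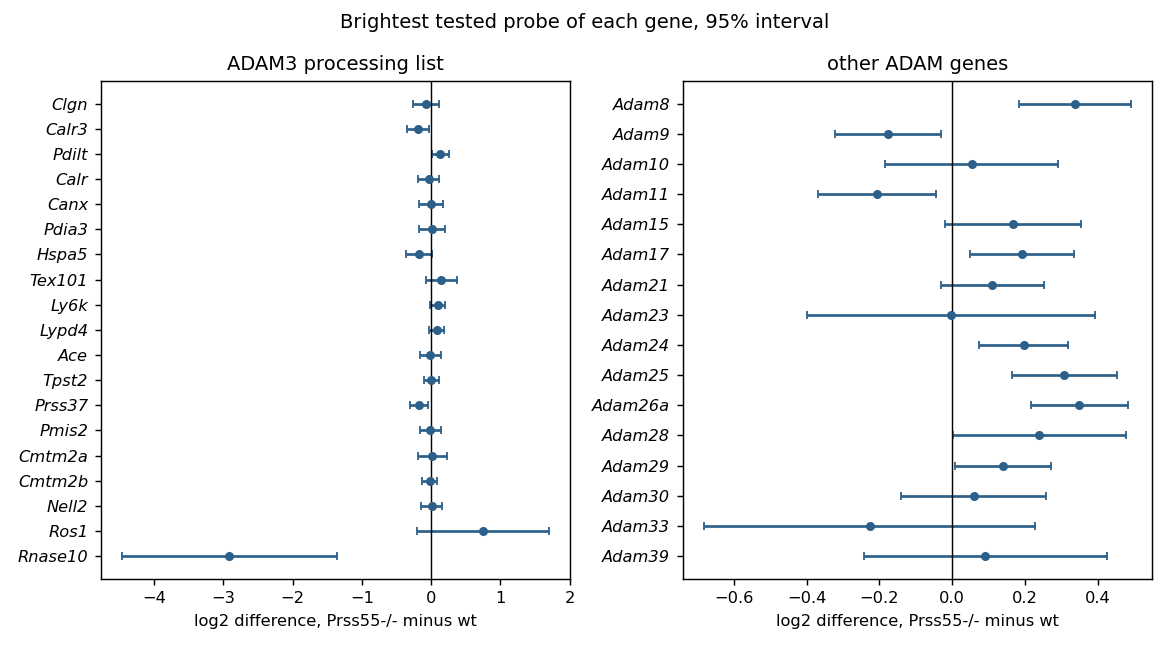
Log2 difference between Prss55-/- and wt testes (x axis, with the 95% interval from limma) of the brightest tested probe of each gene, for genes linked to ADAM3 processing (left) and for the other ADAM genes (right, on a finer scale). On the left Rnase10, which not every Prss55-/- array read well above background, lies at -2.91, and on the right Adam26a lies at 0.35 and Adam29 at 0.14.

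The 5 genes whose pattern over the 6 arrays lay closest to that of Adam3, by the root mean square difference of centred log2 values over 19180 other gene names, were Slco2a1 (0.016), Tubd1 (0.017), 4930593A02Rik (0.020), Prss12 (0.025) and Ptpn6 (0.026). The nearest member was Adam6b (0.079, at position 387), followed by Adam6a (0.11, at position 1557), and Adam1a was farthest (0.25). With 6 arrays this is a description only.

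The germ cell content of the samples was described with marker lists. The summed signal of 5 spermatogonia genes was 24810 to 27110 in Prss55-/- and 26440 to 29730 in wt samples. For 7 spermatocyte genes it was 44920 to 50980 and 40490 to 44790, with 0 past limma's adjusted p. The highest of these sums is Prss55-/- replicate 1, where Meiob read 14.08, against 13.28 in each of the other Prss55-/- samples. Of their 9 probes, 2 had an unadjusted p below 0.05, where 19.1% of all probes did. These 2 went opposite ways without overlap, with Sycp1 higher (log2 difference 0.31) and Dmc1 lower (-0.29) in Prss55-/- samples. The summed signal of 6 round spermatid genes was 186200 to 201400 in Prss55-/- and 172000 to 182800 in wt samples, with 5 of 6 genes higher without overlap, 0 past limma's adjusted p and 6 of 7 probes at an unadjusted p below 0.05, where 13.4% of all probes were higher without overlap and 19.1% had such a p. For 6 elongating spermatid genes it was 1667000 to 1768000 and 1761000 to 1827000. That sum is mostly Prm1, Prm2 and Tnp1, at mean log2 signals of 18.81, 18.79 and 18.89 in Prss55-/- samples. Quantile normalization gives the brightest probes nearly the same values on every array, so that sum cannot describe elongating spermatid content. Of the 9 probes of these 6 genes, 0 passed limma's adjusted p and 1 had an unadjusted p below 0.05, against 19.1% of all probes. That probe reads Tnp2, with all Prss55-/- values below wt and a log2 difference of -0.20. For the 5 Leydig cell genes found on the array, the summed signal was 31770 to 51340 and 51010 to 58520, with a median log2 difference of -0.62, 0 past limma's adjusted p and 3 of 8 probes at an unadjusted p below 0.05. The part of cell composition in the member values was not tested.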

How the data were processed

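Gene expression in testes of 2 genotypes, 3 samples each, was read on 6 one-colour Agilent whole mouse genome arrays. The authors scanned them with Agilent Feature Extraction (version 10.7 in the submitters' processing notes), and the deposited scanner files hold each spot's processed intensity, with background subtracted and not normalized between arrays. The value table the authors deposited holds log2 values, used as an alternative. File headers name mm9. Control spots and outlier flags were left out, intensities were floored at 1, put on the log2 scale, quantile normalized as in the study's methods, and averaged per probe. A probe was tested if every one of its spots was well above background on each of the 3 arrays of either genotype; these 28606 probes were compared with limma 3.58.1 (R 4.3.3) and Benjamini-Hochberg adjustment. A first version required at least 50% of a probe's spots; it was replaced after results had been seen, to match an earlier processing of these data, and is kept as an alternative. The test was checked on simulated data. The number of arrays limits the precision.

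Members and lists were chosen with earlier results of these data known. Genes named are all members, Prss55, list genes past the adjusted p or not overlapping, processing genes the study names, the 5 genes most like Adam3, and called genes within 1 Mb of a member; genes under other observations were chosen after their values were seen. The brightest probe stands for a gene. Older symbols were matched through RefSeq names unless now another gene's symbol. Other settings were 75th percentile scaling, normexp with an offset of 50, no filter, slide as a random block, a replicate block, the deposited log2 table, the methods' t-test, and leaving out each array. Promoter windows were found for 4 of 10 members.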

Additional observations from a re-analysis of the deposited data

How the results depend on the processing

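Over all alternatives run, the member count past the adjusted p stayed at 0 except without Prss55-/- replicate 1, and leaving out single arrays gave 0 to 1. Adam3 is that 1 probe, in a setting where 2.99% of all probes passed (855 in place of 346). Leaving out single arrays gave 2 to 6 member probes without overlap, 0 to 1 processing genes and 0 to 3 probes of other ADAM genes past the threshold; with fewer arrays, groups overlap less by construction. The normexp background gave 1 processing gene, Rnase10. No filter, the methods' t-test after adjustment and the replicate block each gave 0 probes of other ADAM genes in place of 2. In these settings 0.34%, 0.304% and 0.0454% of all probes passed, in that order, in place of 1.21%. The cause was not tested. Direction turned for Adam2 under normexp (-0.0075). Leaving out single arrays, it also turned for Adam2 (range -0.0515 without wt replicate 3 to 0.0536), Adam5 (-0.0112 to 0.0592), Adam1b (-0.0572 to 0.0165) and Adam18 (-0.0971 to 0.0006); all of these values are small. Requiring only 50% of a probe's spots above background, chosen after seeing the data, changed no member call. The median member difference ran from -0.07 to -0.04.

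Replicate numbers are shared between genotypes, but deviations of same-numbered samples correlated at -0.054, -0.023 and -0.112, so the numbers were not taken to pair the samples. With the replicate block 13 of all probes passed, in place of 346, and 0 member probes. With slide as a random block 287 passed, again 0 of them members. No slide held both genotypes, so this setting cannot separate slide from genotype.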

Other observations

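Adamdec1 and Adam28 lie on chromosome 14, the chromosome of Prss55. Adamdec1, a secreted ADAM-like protease, was too dim to be tested. It read 6.38, 5.07 and 4.92 in Prss55-/- testes and 2.72, 2.70 and 2.70 in wt, and was well above background on 2 Prss55-/- arrays and on 0 wt arrays. Not every Prss55-/- array read it well above background, so no fold is given. With no filter on dim probes, its limma adjusted p was 0.0975. The 3 probes of Adam28 disagreed. The tested one gave a log2 difference of 0.24 (limma adjusted p = 0.26). The other two were too dim to be tested, with log2 differences of 2.05 and -0.81, and were well above background on 1 Prss55-/- array and 1 wt array respectively, so no fold is given for them.

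Ros1, a receptor tyrosine kinase of the epididymal epithelium, read 7.34, 6.64 and 8.30 in Prss55-/- samples and 6.74, 6.71 and 6.60 in wt, so that replicate 3 stood above the rest. All 3 genes were chosen after their values were seen.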
